A study of Mus musculus with 7 samples.

Results

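The nuclear genes of oxidative phosphorylation were taken as the 111 entries, of 25912 in the expression tables, whose symbol begins with Atp5, Nduf or Uqcr, with Sdh and a letter from a to d, or with Cox and a digit. Sorted by symbol into the complexes, 38 entries belonged to complex I, 4 to complex II, 8 to complex III, 19 to complex IV and 17 to complex V, together 86 entries counted as structural subunits. Among the complex I entries, Ndufa11b and Ndufb4c are annotated as processed pseudogenes. The remaining entries were 21 assembly factors, 3 entries with a pseudogene symbol and Cox7a2l, which joins complexes into supercomplexes. Ndufa4 and Ndufa4l2 were counted with complex IV, to which their proteins are assigned today in spite of their names. Levels were measured by Smart-seq2, in which cDNA is primed with oligo(dT) on the poly(A) tail, in libraries of 10 mouse oocytes each. Fully grown oocytes with a germinal vesicle (GV), arrested in the first meiotic prophase, gave 2 libraries, which are labelled as untreated, although the methods of the study name DMSO as the control for GV oocytes as well. Oocytes cultured for 16 h to metaphase II (MII), the stage at which they can be fertilised, gave 3 libraries with the solvent DMSO and 2 libraries with BYBX, a small molecule that binds RNA G-quadruplexes (rG4). All oocytes came from the ovaries of 4-week-old C57BL/6 females 44 h after an injection of PMSG (a hormone that drives follicles to grow), and no genetic change is named for any group. The labels give no dose of BYBX, which was 1 μM in the translation efficiency comparison of MII oocytes that draws on Smart-seq2 levels, and it is not stated whether the BYBX-treated oocytes were chosen for an extruded polar body, so the group holds oocytes cultured to the time of MII. The sources do not say whether the libraries of a group came from separate animals or cultures, so p-values measure the spread between these libraries.

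Oxidative phosphorylation passes electrons from NADH through complex I, or from succinate through complex II, to ubiquinone, on to complex III and cytochrome c and from there to oxygen at complex IV. Protons pumped on the way drive complex V, the ATP synthase. The oocyte relies on its mitochondria for ATP, since it burns little glucose itself, and it carries a large maternal stock of mitochondria into the embryo. Transcription is silent in the fully grown oocyte, and maternal mRNAs are degraded or translated during maturation. Complexes I, III, IV and V also need subunits encoded by mitochondrial DNA, which the tables do not list, so all values below are of nuclear genes.

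Sequence features of the transcripts are given first, because the study turns on rG4 and because the fate of an oocyte mRNA is tied to its 3' end. Transcripts of the GENCODE vM21 annotation (GRCm38, the assembly called mm10) were found for 104 of the 111 entries. A predicted rG4 (4 stretches of G, each 3 or longer, separated by 1 to 7 bases on the transcribed strand) occurred in 9 of them, and in 7 of the 94 tested members with a transcript, against 17.8% of all tested entries with a transcript. Whole transcripts were searched, and the median length was 892 bases for these tested members against 2859 for the tested entries. A shorter transcript offers fewer places for a motif, and the part of length in these shares was not tested. The motif lay in the 5' UTR of Atp5mpl and Sdhaf1 and in the coding sequence of Ndufv1. In Atp5g1, Cox15, Cox17, Cox19, Ndufa12 and Uqcrc1 it lay in the 3' UTR. The motifs of the 5' UTRs, of the coding sequence and of a 3' UTR are shown with the G runs in capitals, at chr12:111966846-111966870 (minus strand), chr7:30323660-30323684 (minus strand), chr19:4009879-4009904 (minus strand) and chr9:108949527-108949548 (plus strand).
Atp5mpl: GGGtccGGGaccGGGtgcggtGGGG
Sdhaf1: GGGGtttGGGagtttGGGGGaGGGG
Ndufv1: GGGaggccGGGccatGGGagcccGGG
Uqcrc1: GGGcGGGGccGGGcacccGGGG

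Cytoplasmic polyadenylation elements are short U-rich stretches near the 3' end to which CPEB proteins bind, and through them oocytes lengthen the poly(A) tails of chosen mRNAs during maturation. The letters TTTTAT, and the variants TTTTAAT and TTTTACT, were searched on the transcribed strand in the last 100 bases of each annotated transcript. They occurred in 10 of the 94 tested members with a transcript, or 10.6%, against 22.0% of the 8772 tested entries with a transcript. All 10 held TTTTAT, in the 3' UTR, and they were Cox5a, Cox6a2, Cox19, Ndufa2, Ndufab1, Ndufaf3, Ndufaf6, Ndufc2, Ndufs4 and Sdhaf2. The element of abundant members is shown in capitals, at chr9:57532331-57532358 (plus strand), chr7:122085438-122085465 (minus strand), chr7:97407714-97407741 (plus strand) and chr13:114287836-114287863 (minus strand).
Cox5a: gcctggaaatgTTTTATttgaacaaatt
Ndufab1: aatttcagactTTTTATtaacaataaat
Ndufc2: tattttctgagTTTTATgggattttctg
Ndufs4: caatggagatcTTTTATtcttaggaaat

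The deposited values are FPKM, fragments scaled to transcript length and sequencing depth, which the authors further scaled to ERCC spike-in RNA and between batches to GV oocytes. Single libraries hold unknown numbers of reads, since no counts were at hand. The totals over all entries were 489569 and 402113 FPKM in GV, 109732, 123567 and 127254 FPKM in MII with DMSO, and 246710 and 201482 FPKM in MII with BYBX. Tests used limma on log2(FPKM + 1) over the 9202 entries with a mean of the group means of at least 1 FPKM, and an entry was called at a Benjamini-Hochberg adjusted p under 0.05. Of the 111 members, 99 passed this filter. The other 12 were Cox7a1, Cox7b2, Cox8b and Ndufa11b, listed at 0 in every library, and Atp5j2, Cox4i2, Cox7c-ps1, Cox8c, Cox15, Ndufa4l2, Ndufa12 and Ndufaf1, listed at low levels. The 10 oocyte markers summed to 12848 to 15601 FPKM in GV, 2827 to 3589 in MII with DMSO and 6716 to 8136 in MII with BYBX. The 12 markers of granulosa and cumulus cells, the follicle cells around the oocyte, summed to 6.34 to 12.8, 2.07 to 2.28 and 2.55 to 2.82 FPKM in the same order, with Ptx3 at 0 in every library, and their part in the results was not tested.

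In GV oocytes the respiratory chain genes were abundant but uneven. Their summed level was 6845 and 6735 FPKM, and 25 members lay above 100 FPKM. Cox5a, a nuclear-encoded subunit of complex IV, was the highest at 403 and 444 FPKM in the GV libraries. It was followed by Atp5h, a stalk subunit of the ATP synthase, at 323 and 337 FPKM. Sdhd, the membrane anchor of complex II, stood at 223 and 201 FPKM, while Sdhb, which carries its iron-sulfur clusters, stood at 29.0 and 27.5 FPKM. Subunits that are present in equal number in the complex therefore differed widely in mRNA level. Within complex I the GV means ran from 222 FPKM for Ndufb11, an accessory subunit of its membrane arm, to 1.65 FPKM for Ndufa10 among the tested genes.

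From GV to MII with DMSO nearly all respiratory chain mRNAs fell. Of the 99 tested members, 95 fell and 0 rose, against 88.3% of all tested entries lower and 0.272% higher. The median log2 change was -3.25 over the members and -1.83 over all tested entries. On the log2(FPKM + 1) scale a gene with a low GV level can fall only a little. The median GV level was 33.2 FPKM over all 111 members, the 12 untested ones included, and 12.7 FPKM over all tested entries. These sets are unlike, and the part of the difference in level was not tested. The mean level in MII was below 5% of the GV mean for 55 members, against 26.6% of all tested entries, and above 25% for 13 members, against 39.7% of all tested entries. The summed level of the members fell from 6790 ± 78.4 FPKM (SD, n = 2) to 858 ± 227 FPKM (SD, n = 3), which is 12.6% of GV, while the total of all entries stood at 27.0% of GV. Each library pooled 10 oocytes and was primed on poly(A) tails, so less mRNA in each oocyte, fewer oocytes that carry an mRNA, and shorter tails cannot be told apart.

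**Figure D1:**
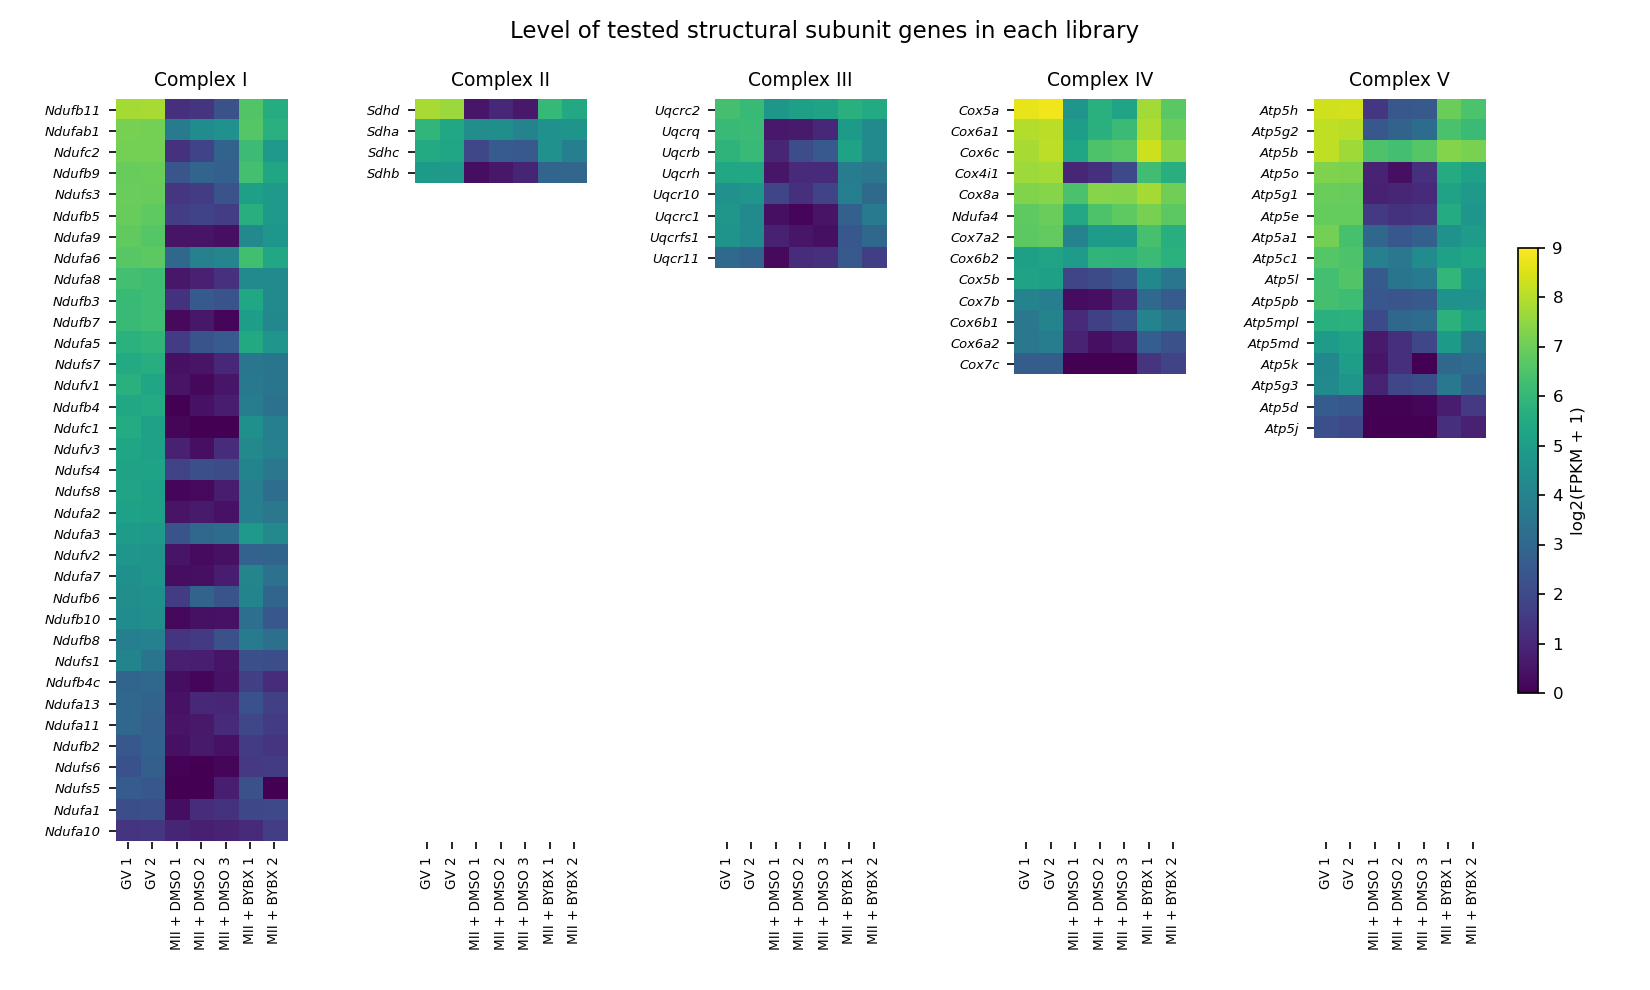
Level of tested structural subunit genes as log2(FPKM + 1) (colour) in each of the 7 libraries (columns), by complex and in the order of the GV mean (rows). Most rows are dark in the 3 DMSO libraries and intermediate in the 2 BYBX libraries, and Cox8a, Cox6b2 and Ndufa4 in complex IV are among the few rows that stay bright throughout.

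The complexes did not fall to the same extent. Complex I, the entry point of electrons from NADH, had a summed level of 1908 and 1860 FPKM in GV, 51.6, 86.0 and 103 FPKM in MII with DMSO, and 891 and 535 FPKM in MII with BYBX. These sums did not overlap between groups, but neither did those of the other complexes or the totals over all entries. The means with DMSO and with BYBX were 4.25% and 37.9% of GV, against 27.0% and 50.3% for the total. All 36 tested complex I entries, the annotated pseudogene Ndufb4c included, were called lower in MII with DMSO, against 88.3% of all tested entries. Of these 36, 24 lay under 5% of GV, against 26.6% of all tested entries.

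Complex IV, which reduces oxygen, was at the other end. Its summed level was 1563 and 1721 FPKM in GV, 274, 539 and 573 FPKM in MII with DMSO, and 1409 and 812 FPKM in MII with BYBX. The mean with DMSO was 28.1% of GV and that with BYBX 67.6%, and 10 of 13 tested subunits were called lower in MII with DMSO. Complex II, succinate dehydrogenase, stood at 7.43% and 30.5% of GV, complex III at 12.6% and 43.6%, and complex V at 8.41% and 37.6%, in each case with DMSO and then with BYBX. All 4 tested subunits of complex II, all 8 of complex III and all 16 of complex V were called lower in MII with DMSO. Since 88.3% of all tested entries were called lower too, these counts alone do not set the complexes apart. The 19 tested assembly factors, which help to build the complexes but are not part of them, were all called lower as well, and their summed level was 16.6% of GV.

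The ratio of complex IV to complex I within a library does not depend on how the library was scaled. It was 0.819 and 0.925 in GV, 5.30, 6.27 and 5.58 in MII with DMSO, and 1.58 and 1.52 in MII with BYBX. The ratios of the 3 groups did not overlap, and those with BYBX lay closer to GV than to DMSO. Complexes IV and I kept the highest and lowest percentages of GV with DMSO, so a higher ratio with DMSO follows from this choice. For complex V over complex I, the ratio was 0.941 and 0.908 in GV, and 2.58, 1.56 and 1.67 with DMSO. With BYBX that ratio was 0.834 and 1.06, which overlapped with GV. Cox8a, Cox6b2 and Ndufa4, picked here after their values were seen, made up 19.0% and 18.7% of the complex IV sum in GV, and 57.3%, 57.7% and 56.3% in MII with DMSO. Without them complex IV stood at 14.9% of GV with DMSO, which is still above the value of complex I, and at 56.2% with BYBX.

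**Figure D2:**
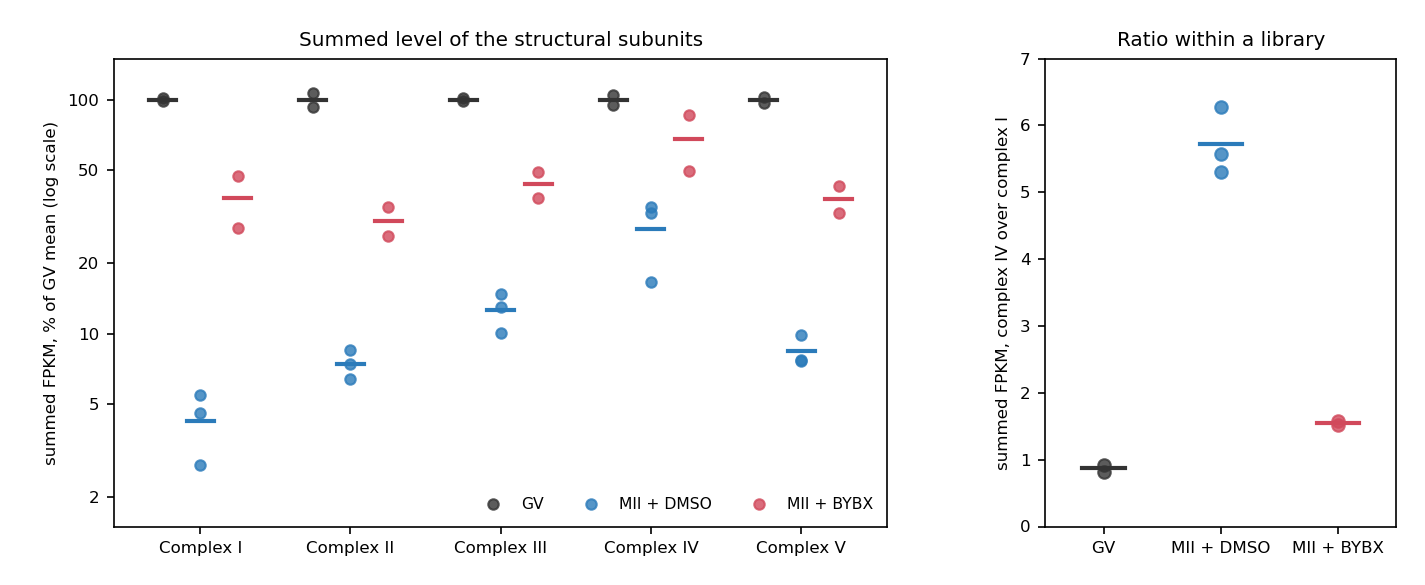
Left, summed FPKM of the structural subunits of each complex as a percentage of the GV mean (log axis). Right, summed FPKM of complex IV divided by that of complex I. Points are libraries and lines are group means. Complex I with DMSO lies at a mean of 4.25% and complex IV at 28.1% of GV, and the ratio of complex IV to complex I rises from a mean of 0.872 in GV to 5.72 with DMSO and lies at 1.55 with BYBX.

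The mRNAs of the complex I core fell to a few percent of GV or less with DMSO. Ndufv1, the subunit that binds FMN and takes up electrons from NADH, was at 51.7 and 37.8 FPKM in GV, 0.388, 0.155 and 0.465 FPKM in MII with DMSO, and 11.5 and 10.4 FPKM in MII with BYBX. The 3 groups were well apart, with BYBX in between. Its log2 change from GV to MII with DMSO was -5.09 ± 0.24 (SE, limma adjusted p = 4.68e-10), and with BYBX it was 3.16 ± 0.24 higher than with DMSO (adjusted p = 1.62e-07). Of the core subunits of the electron path, Ndufs1, Ndufs3, Ndufs7, Ndufs8 and Ndufv2 stood at 0.844% to 4.70% of GV with DMSO and at 23.0% to 30.9% with BYBX. Among them, 35.8% of the 50-base windows of Ndufs3 also occur at another locus, so its single values are uncertain. Ndufa9, an accessory subunit near the ubiquinone site, was at 110 and 97.0 FPKM in GV, 0.386, 0.399 and 0.296 FPKM with DMSO, and 18.5 and 25.5 FPKM with BYBX. Ndufb11 was at 221 and 223 FPKM in GV, 1.39, 1.65 and 3.69 FPKM with DMSO, and 93.3 and 46.6 FPKM with BYBX. Of the 36 tested complex I entries, 2 stood above 25% of GV with DMSO. Ndufa10 was among them, and its level was low from the start, with 1.62 and 1.67 FPKM in GV. Ndufa10 was at 0.909, 0.747 and 0.856 FPKM with DMSO, and at 1.17 and 2.08 FPKM with BYBX. It was called lower at -0.53 ± 0.20 (adjusted p = 0.0213), a direction that reversed at the same total FPKM and under median centring.

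In complex II the subunits fell to widely different extents. Sdhd had the largest fall of all members on the log2(FPKM + 1) scale. Relative to GV some members fell further, among them Cox7c and Atp5j, which were both listed at 0 with DMSO. Sdhd was at 223 and 201 FPKM in GV and at 0.441, 1.04 and 0.523 FPKM in MII with DMSO. In MII with BYBX it was at 63.9 and 42.3 FPKM. The DMSO libraries were all near 1 FPKM or below, and the BYBX libraries lay between them and GV. The log2 change was -7.01 ± 0.27 (adjusted p = 2.45e-10) from GV to MII with DMSO and 5.01 ± 0.27 (adjusted p = 2.42e-08) from DMSO to BYBX, also the largest rise of all members on that scale. Sdha, the flavoprotein that oxidises succinate, was at 60.0 and 40.6 FPKM in GV, 21.0, 21.5 and 15.2 FPKM with DMSO, and 22.3 and 24.0 FPKM with BYBX. It fell by 1.33 ± 0.27 on the log2 scale (adjusted p = 0.000367), but it did not pass the test between the MII groups (0.27 ± 0.27, adjusted p = 0.382), where the BYBX libraries lay just above the highest DMSO library. Sdhb fell to 1.94% of GV and Sdhc, the other membrane anchor, to 10.1%. Of the 4 subunits of this enzyme, Sdha therefore stood out by keeping 38.2% of its GV level with DMSO, and its fall turned into a rise at the same total FPKM and under median centring.

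The subunits of complex III differed widely as well. Uqcrc2, a core protein that holds the complex together, was at 79.4 and 68.4 FPKM in GV, 26.3, 33.2 and 35.6 FPKM with DMSO, and 51.2 and 44.3 FPKM with BYBX. Its partner Uqcrc1, whose motif is shown above, was at 26.0 and 18.8 FPKM in GV, 0.283, 0.104 and 0.405 FPKM with DMSO, and 5.85 and 11.6 FPKM with BYBX. The pair thus kept 42.9% and 1.18% of their GV levels with DMSO. The log2 change of Uqcrc2 was -1.20 ± 0.25 (adjusted p = 0.000488), reversed at the same total FPKM and under median centring, and that of Uqcrc1 was -4.20 ± 0.28 (adjusted p = 6.57e-09). Uqcrfs1, the Rieske iron-sulfur protein, stood at 2.32% of GV with DMSO and 27.3% with BYBX. Uqcr11, a small accessory subunit and the lowest tested member of the complex in GV, stood at 13.1% and 49.1%.

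In complex IV, Cox4i1, the largest nuclear-encoded subunit, had the largest log2 fall. It was at 206 and 216 FPKM in GV, 0.97, 1.31 and 2.95 FPKM with DMSO, and 73.8 and 49.2 FPKM with BYBX. The log2 change from GV was -6.34 ± 0.31 (adjusted p = 6.38e-10). Cox5a was at 25, 50.9 and 37.6 FPKM with DMSO and at 216 and 103 FPKM with BYBX, so that it kept 8.94% and 37.8% of its GV level, and Cox5b kept 9.79% and 40.2%. Cox7c was at 5.29 and 5.22 FPKM in GV, listed at 0 in the 3 DMSO libraries, and at 1.57 and 2.61 FPKM with BYBX. Of the 50-base windows of Cox5b and Cox7c, 25.9% and 53.0% occur at another locus too, which leaves their values uncertain.

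Against these stood 3 complex IV genes that were not called in MII with DMSO. Cox8a, a small membrane subunit (chr19:7215153-7217616, minus strand), was at 156 and 162 FPKM in GV, 84.2, 163 and 159 FPKM with DMSO, and 220 and 132 FPKM with BYBX. Ndufa4 (chr6:11900292-11907497, minus strand) was at 107 and 121 FPKM in GV, 42.6, 89.5 and 107 FPKM with DMSO, and 143 and 105 FPKM with BYBX. Cox6b2 (chr7:4751792-4753094, minus strand), an isoform known from testis of the subunit that bridges the complex dimer, was at 33.4 and 37.6 FPKM in GV, 29.9, 58.6 and 56.4 FPKM with DMSO, and 69.9 and 52.6 FPKM with BYBX. In each of them the first of the 3 DMSO libraries was the lowest, and the groups overlapped for Cox8a in every comparison. The log2 changes from GV to MII with DMSO were -0.29 ± 0.32 (adjusted p = 0.401) for Cox8a, -0.61 ± 0.35 (adjusted p = 0.111) for Ndufa4 and 0.38 ± 0.31 (adjusted p = 0.259) for Cox6b2. Without the first DMSO library, Cox6b2 was called higher in MII, at 0.68 ± 0.30 (adjusted p = 0.0375). With every library scaled to an equal total, all 3 were called higher in MII, at 1.58 for Cox8a, 1.25 for Ndufa4 and 2.21 for Cox6b2 on the log2 scale. None of their annotated transcripts held the TTTTAT-type letters in the last 100 bases, and none shared a 50-base window with a transcript of another locus. The fourth entry that was not called was the second Ndufs5-ps entry, a pseudogene whose symbol is listed 2 times. It was at 0.000933 and 1.23 FPKM in GV, 0.578, 0.22 and 4.49e-05 FPKM with DMSO, and 0.867 and 3.89 FPKM with BYBX, so that GV overlapped with both MII groups while the BYBX libraries lay above those with DMSO.

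Isoforms of the same complex IV subunit fell to different extents. Cox6b1, the isoform of most tissues, was at 11.3 and 15.6 FPKM in GV, 1.16, 2.28 and 3.48 FPKM with DMSO, and 15.2 and 9.96 FPKM with BYBX. The level of Cox6b2 divided by that of Cox6b1, which is free of the library scaling, was 2.97 and 2.41 in GV, 25.8, 25.7 and 16.2 with DMSO, and 4.62 and 5.29 with BYBX. Cox6b2 was thus the higher isoform in every library, and by more in MII with DMSO. Cox6a1, the isoform of most tissues, was at 247 and 265 FPKM in GV, 31.9, 51.6 and 69.1 FPKM with DMSO, and 236 and 126 FPKM with BYBX. Cox6a2, the form of heart and skeletal muscle, was at 11.2 and 12.6 FPKM in GV, 0.822, 0.285 and 0.583 FPKM with DMSO, and 5.50 and 3.66 FPKM with BYBX. Cox7b, a small membrane subunit, kept 3.11% of GV with DMSO and 43.9% with BYBX. Both muscle forms Cox7a1 and Cox8b, and Cox7b2, were listed at 0 in every library, and Cox4i2, the isoform of lung, stayed between 0.0914 and 1.46 FPKM. Cox8c, known from testis, was highest at 2.08 FPKM in a GV library. Cox7a2 kept 22.9% of its GV level with DMSO, and its relative Cox7a2l, the supercomplex factor, kept 1.22%. Cox7a2l was at 256 and 255 FPKM in GV, 2.42, 3.40 and 3.54 FPKM with DMSO, and 94.1 and 55.1 FPKM with BYBX, with a log2 change of -5.97 ± 0.28 (adjusted p = 4.68e-10) from GV.

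**Figure D3:**
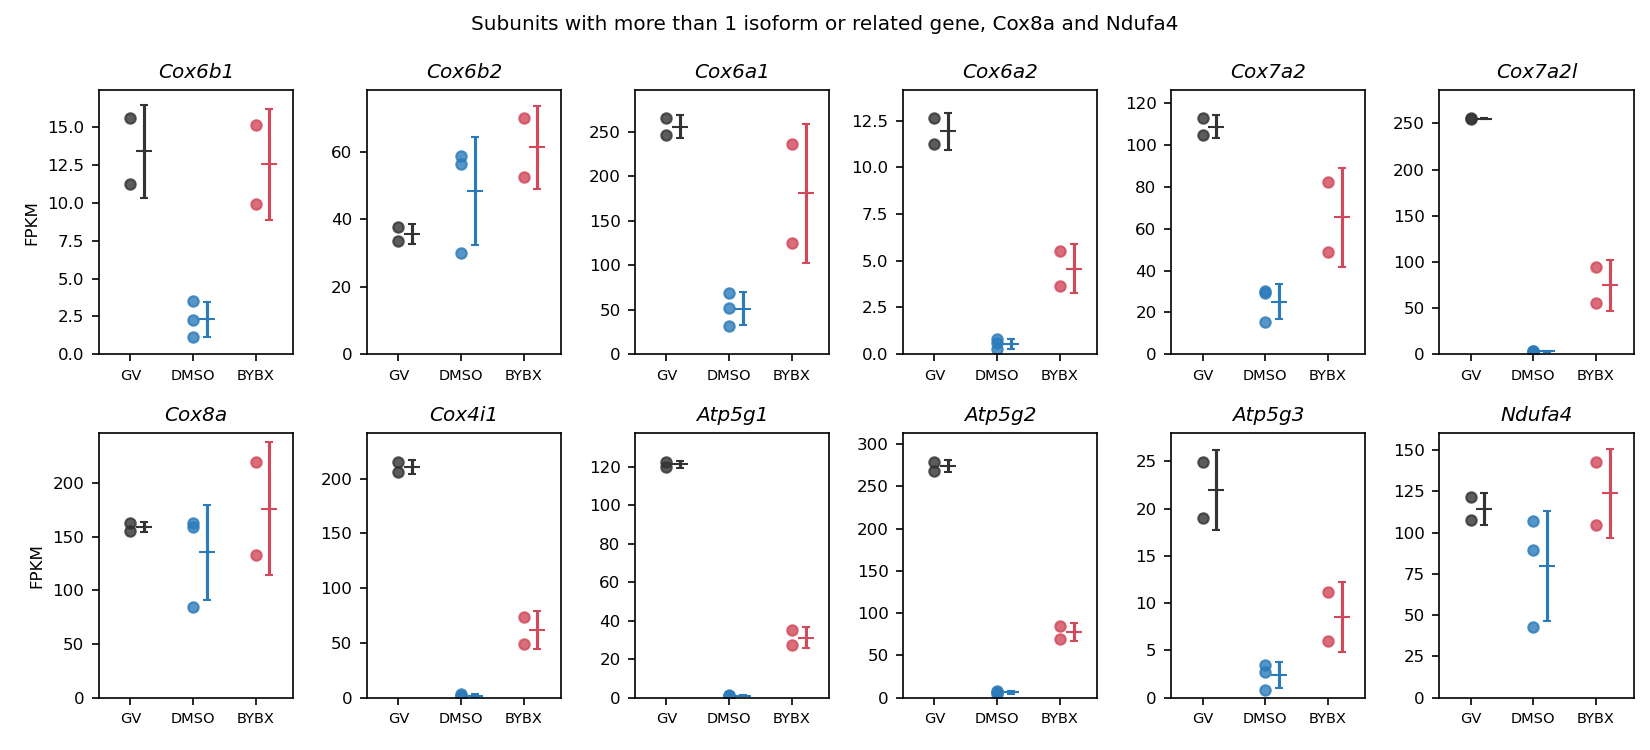
FPKM of subunits with several isoforms or relatives, and of Cox8a and Ndufa4, in GV, MII with DMSO and MII with BYBX (separate linear axes from 0). Points are libraries, and the marks beside them are the mean and SD (n = 2, 3 and 2). Cox6b1 falls with DMSO while Cox6b2 does not, and Cox7a2l, Cox4i1 and Atp5g1 drop to a few FPKM or less with DMSO and lie in between with BYBX.

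The ATP synthase fell throughout. Atp5b, the catalytic beta subunit, was the subunit that kept most, with 281 and 211 FPKM in GV, 88.2, 78.8 and 98.8 FPKM with DMSO, and 160 and 143 FPKM with BYBX. Its alpha partner Atp5a1, which sits in the same hexamer, was at 137 and 81.4 FPKM in GV, 7.07, 4.46 and 5.74 FPKM with DMSO, and 23.5 and 30.8 FPKM with BYBX. The beta subunit kept 36% and the alpha subunit 5.27% of the GV level with DMSO, and the fall of Atp5b turned into a rise at the same total FPKM and under median centring. Atp5c1, the rotating gamma subunit, kept 15.8%. Atp5o, the stalk subunit that confers sensitivity to oligomycin, was at 151 and 147 FPKM in GV, 0.805, 0.285 and 1.39 FPKM with DMSO, and 45.1 and 34.8 FPKM with BYBX, a log2 change of -6.41 ± 0.28 (adjusted p = 3.83e-10). Atp5h was at 1.71, 4.39 and 4.72 FPKM with DMSO and 126 and 85.8 FPKM with BYBX, but 47.9% of its 50-base windows occur at another locus too.

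The membrane ring of the ATP synthase is built from identical copies of subunit c, which 3 genes encode with different import signals. Atp5g1 fell from 121 FPKM in GV to 0.948 with DMSO, Atp5g2 from 274 to 6.29 and Atp5g3 from 22.0 to 2.35, in group means. With BYBX they stood at 31.2, 77.4 and 8.54 FPKM. Of the 50-base windows of Atp5g2, 87.4% occur in a transcript of another locus, so reads could have been split between copies or lost, and its level is uncertain.

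BYBX-treated MII oocytes held more of nearly all these mRNAs than the DMSO controls. Of the 99 tested members, 91 rose with BYBX and 0 fell, against 65.2% of all tested entries higher and 0.0326% lower. The median log2 difference was 2.01 over the members and 0.84 over all tested entries. Both BYBX libraries lay above all 3 DMSO libraries for 94 members, against 79.0% of all tested entries. By complex, 35 of 36 subunits of complex I, 3 of 4 of complex II, 7 of 8 of complex III, 10 of 13 of complex IV and 16 of 16 of complex V were called higher, as were 17 of 19 assembly factors. The largest rises on the log2 scale were those of Sdhd, Atp5h at 4.59 ± 0.33 (adjusted p = 1.16e-07) and Cox4i1 at 4.55 ± 0.31 (adjusted p = 8.75e-08). This comparison shares its DMSO libraries with that of MII and GV. The 8 members that did not pass were Cox6b2, Cox8a, Cox10, Ndufa4, Ndufaf2, Ndufs5, Sdha and Uqcrc2.

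The levels with BYBX stayed below GV for most members. Of the 99, 78 were called below GV and 1, the second Ndufs5-ps entry, above it at 1.02 ± 0.41 (adjusted p = 0.04), against 69.2% of all tested entries lower and 0.315% higher. The median log2 difference was -1.31 over the members and -0.99 over all tested entries, and the median member stood at 37.9% of GV, against 43.4% for all tested entries. By complex, 30 of 36 subunits of complex I, 4 of 4 of complex II, 7 of 8 of complex III, 6 of 13 of complex IV and 14 of 16 of complex V were called lower. The lowest were Ndufaf6, an assembly factor of complex I, at -2.34 ± 0.22 (adjusted p = 4.45e-05) and Ndufa9 at -2.20 ± 0.26 (adjusted p = 6.49e-05). In MII with BYBX, Cox6b1 stood at 93.5% of GV, Cox6c at 96.2% and Atp5mpl at 84.8%, and none of these passed the test against GV. Cox6b2 missed it at 0.76 ± 0.34 (adjusted p = 0.0603), and passed without the first DMSO library, which adds to the shared spread (adjusted p = 0.0272).

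**Figure D4:**
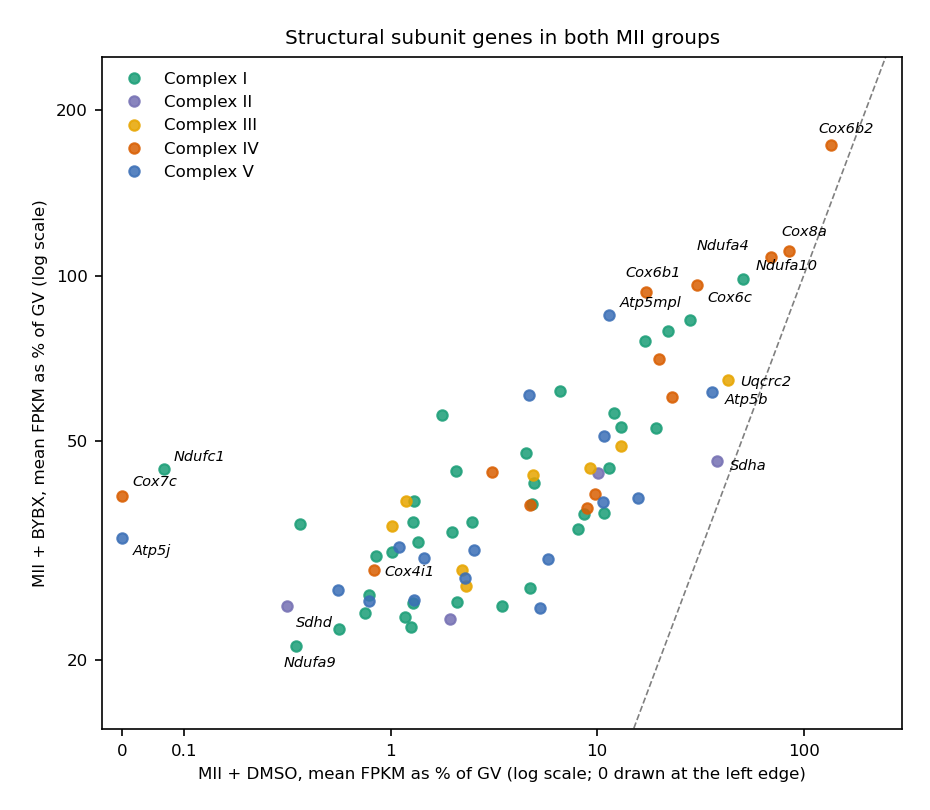
Mean FPKM of each tested structural subunit gene in MII with DMSO (x axis) and MII with BYBX (y axis), both as a percentage of its GV mean (log axes), coloured by complex, with the line of equal values. Every point lies above the line. Sdhd lies at 0.315% with DMSO and 25.1% with BYBX, and Cox6b2 at 136% and 173%. Cox7c and Atp5j, listed at 0 with DMSO, are drawn at the left edge.

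Levels of members with a predicted rG4 are given here as a description, and the part of the motif in them was not tested. The median tested member stood at 4.65% of GV with DMSO and at 37.9% with BYBX. Atp5mpl, a small membrane subunit of the ATP synthase with a motif in its 5' UTR, was at 51.9 and 53.3 FPKM in GV, 3.04, 7.0 and 7.98 FPKM with DMSO, and 54.6 and 34.7 FPKM with BYBX. Sdhaf1, an assembly factor of complex II that likewise has a motif in its 5' UTR, was at 48.4 and 46.4 FPKM in GV, 1.42, 1.89 and 2.02 FPKM with DMSO, and 16.9 and 11.6 FPKM with BYBX. With BYBX the former stood at 84.8% of GV and the latter at 30.1%. Of the members with a motif in the 3' UTR, Cox17, a copper chaperone for complex IV, stood at 1.10% of GV with DMSO and 34.7% with BYBX, and Cox19, another factor in copper delivery, at 1.47% and 25.4%. Cox15 and Ndufa12, both with a motif in the 3' UTR, were under 1 FPKM with DMSO and with BYBX.

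The TTTTAT letters can be set beside the change in level in the same way, as a description. Over all tested entries with a transcript, the median log2 change from GV to MII with DMSO was -1.25 for the 1929 entries with the letters and -2.00 for those without. Over the members it was -3.39 for the 10 with the letters and -3.21 for the 84 without. Ndufab1, the acyl carrier protein of complex I, kept 13.1% of its GV level with DMSO, Ndufs4 8.68% and Ndufc2 2.47%, and all 3 carry the element shown above.

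Since most mRNAs fell, the scale decides how many calls point down. Scaled to an equal total FPKM, 77 members were called lower and 6 higher from GV to MII with DMSO, against 49.5% and 23.3% of all tested entries. On that scale 77 were higher and 0 lower from DMSO to BYBX, against 39.9% and 8.22%, and 17 were lower and 2 higher from GV to BYBX, against 13.3% and 5.3%. After centring each library on its median, the counts were 57 lower and 14 higher from GV to MII with DMSO (26.7% and 48.8% of all tested entries), 50 higher and 8 lower with BYBX against DMSO (18.4% and 43.9%), and 22 lower and 6 higher with BYBX against GV (13.6% and 15.2%). The median log2 change of the members minus that of all tested entries was -1.42 from GV to MII with DMSO as deposited and after centring, and -1.29 at an equal total. From DMSO to BYBX this difference was 1.17 as deposited and after centring, and 1.09 at an equal total.

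The share of all FPKM that the members took, which no scaling changes, moved in the same way. It was 1.40% and 1.67% in GV, 0.551%, 0.751% and 0.819% in MII with DMSO, and 1.52% and 1.20% in MII with BYBX. The shares with DMSO lay below all others, while those of GV and BYBX overlapped. The share of complex I went from 0.426% ± 0.0514 (SD, n = 2) in GV to 0.0658% ± 0.0172 (SD, n = 3) with DMSO and 0.313% ± 0.0675 (SD, n = 2) with BYBX. That of complex IV was 0.374% ± 0.0769, 0.379% ± 0.112 and 0.487% ± 0.119 in the same order, and these overlapped.

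Within the MII groups, though not in GV, libraries differed more over the members than over all tested entries. The first BYBX library was higher than the second in 80 of 99 tested members, with a median log2 difference of 0.47 against 0.12 over all tested entries. The first DMSO library was lower than the third, with a median of -0.41 against -0.08, while the GV libraries differed by 0.02 over the members against 0.31. The median annotated transcript was 892 bases long for the 94 members and 2859 bases for the 8772 entries, and across genes, which are not independent replicates, Spearman's rho between length and the difference of the BYBX libraries was -0.34 over the members and -0.07 over all entries with a transcript. Between length and the log2 change from GV to MII with DMSO it was -0.12 over the members and 0.33 over all entries, from DMSO to BYBX it was -0.02 and -0.36, and from GV to BYBX -0.33 and 0.23. Over all entries, shorter transcripts thus fell more and rose more. The part of transcript length and of single libraries in the difference between the members and all entries was not tested. With only the second or only the first BYBX library, complex I stood at 28.4% or 47.3% of GV.

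Other genes of the pathway, listed by function and outside the naming rule, can be set beside the members. Of 50 genes for electron carriers, ubiquinone synthesis and further assembly factors, 40 were tested, and 40 fell from GV to DMSO, 34 rose from DMSO to BYBX, and 33 lay below GV with BYBX, with median log2 changes of -2.71, 1.47 and -1.22. Over all tested entries the shares were 88.3%, 65.2% and 69.2%, and the medians -1.83, 0.84 and -0.99. Cyc1, the cytochrome of complex III, was at 23.0 and 19.1 FPKM in GV, 0.561, 0.536 and 0.911 FPKM with DMSO, and 6.27 and 8.23 FPKM with BYBX. Etfa and Etfb encode the partners in the flavoprotein that brings electrons from fatty acid oxidation, and their means were 95.2, 46.2 and 75.2 FPKM and 22.1, 0.171 and 6.49 FPKM in GV, MII with DMSO and MII with BYBX. Of 17 regulators of respiratory chain and mitochondrial gene expression, 11 were tested, and 10 fell from GV to DMSO, 9 rose from DMSO to BYBX and 8 lay below GV with BYBX, with medians of -2.60, 1.23 and -1.40. Of these counts, those against GV are near the shares over all tested entries. Tfam, which packages mitochondrial DNA, went from 18.3 to 0.0633 and 5.25 FPKM, and Mterf4, a factor for mitochondrial ribosomes, from 180 to 1.58 and 38.2 FPKM, whereas Tfb2m, a mitochondrial transcription factor, was at 5.87, 5.32 and 5.61 FPKM.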

How the data were processed

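Smart-seq2 libraries of 10 oocytes each were grouped by their labels (2 GV, 3 MII with DMSO, 2 MII with BYBX). The authors trimmed reads (Trim Galore 0.6.7), aligned them to mm10 (HISAT2 2.2.1), computed FPKM on UCSC gene models (Cufflinks 2.2.1) and normalized them to ERCC spike-in and to the GV oocytes of each batch. The factors are not given in the sources used here. The deposited FPKM values come without read counts, so the depth is unknown. Of 25912 entries, 4 with a missing value were left out. Tests used limma 3.58.1 in R 4.3.3 on log2(FPKM + 1), with all 7 libraries in a model of 3 group means, 4 residual degrees of freedom, an intensity trend and Benjamini-Hochberg adjustment over 9202 entries. The step was tested on simulated data. Positions, transcripts and motifs came from GENCODE vM21 (principal protein-coding transcript, the longest where several ranked equal). Whether oocytes hold these forms, with the 3' ends searched, was not tested. Figures and sums used Python 3.11.15. Genes named were a set list of main subunits, the highest and lowest GV level of each complex, and isoform sets. The rule also named the 3 largest and smallest changes of each comparison, members that failed the call and members with a motif. Genes with the TTTTAT element, and others named only by percentage, were added after values were seen. A member that this rule names is not reported here. Members and lists were chosen with earlier results of these data known. Other settings tried were an added 0.1 in place of 1, a cut at 5 FPKM, no cut, other scalings, only the groups compared, no trend, a replicate block, a 2-fold minimum and leaving out single libraries.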

Additional observations from a re-analysis of the deposited data

How the results depend on the processing

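Leaving out single libraries gave 0 to 1 members higher in MII with DMSO than in GV (1 without the first DMSO library, Cox6b2) and 0 to 2 members higher with BYBX than in GV. For the latter comparison the count was 0 with a pseudocount of 0.1, without a filter, without the intensity trend, without repeated symbols or over structural subunits only (a choice made after the data were seen), and 2 when only the compared groups were fitted. At the same total FPKM, 6 members were higher in MII with DMSO than in GV, and for GV to BYBX 17 were lower and 2 higher. After centring on the median, 57 were lower and 14 higher from GV to DMSO, 50 higher and 8 lower from DMSO to BYBX, and 22 lower and 6 higher from GV to BYBX. The median log2 changes, in the order GV to DMSO, DMSO to BYBX and GV to BYBX, were -1.85, 1.44 and -0.38 at the same total and -0.95, 0.73 and -0.29 after centring. For the first and second of these comparisons they were -4.46 and 2.95 with a pseudocount of 0.1 and -3.83 and 2.44 with a filter at 5 FPKM, which leaves fewer low genes. At the same total, the change from GV to DMSO became 0.50 for Sdha, 0.65 for Uqcrc2, 0.42 for Atp5b, 0.50 for Ndufa10, 1.58 for Cox8a and 1.25 for Ndufa4, and Atp5b became -0.12 from DMSO to BYBX and 0.30 from GV to BYBX. After centring, the change from GV to DMSO became 0.97 for Sdha, 1.10 for Uqcrc2, 0.85 for Atp5b, 1.78 for Ndufa10, 0.18 for Uqcr11, 0.21 for Atp5j, 2.01 for Cox8a, 2.04 for the second Ndufs5-ps entry, 1.69 for Ndufa4, 0.13 for Cox6b1 and 0.16 for Cox7a2. From DMSO to BYBX it became -1.01 for Sdha, -0.69 for Uqcrc2, -0.51 for Atp5b, -0.78 for Ndufa10, -0.057 for Uqcr11, -0.23 for Atp5j, -0.89 for Cox8a and -0.90 for Cox6b2, and from GV to BYBX 0.34 for Atp5b, 0.99 for Ndufa10 and 0.12 for Uqcr11. The median over subunits, in place of the sum, was 1.79%, 5.43%, 3.06%, 11.3% and 3.29% of GV for complexes I to V with DMSO, and 45.0% for complex II with BYBX. The median part of the fall that BYBX oocytes kept, (BYBX - DMSO) / (GV - DMSO), was 0.334 as deposited (0.288 over all entries that fell), 0.25 or 0.414 with only the second or the first BYBX library, and 0.611 at the same total. Apart from the scalings, 1847 of 1908 repeated values for named members kept their direction and side of the threshold, 43 lost the call and 18 gained it. The cause of these shifts was not tested. Whether the replicate numbers pair the samples is not stated, and the main tests treated the libraries as unpaired. Same-numbered libraries deviated together in GV and DMSO (correlations 0.49 and 0.28) but not in DMSO and BYBX (-0.60 and -0.35) or GV and BYBX (-0.33). In a group of 2 libraries the deviations from the mean mirror each other, so these correlations cannot decide whether samples are paired. With the replicate block, 95 members were lower from GV to DMSO, 92 higher from DMSO to BYBX and 75 lower from GV to BYBX, and with crossed numbers, chosen after the data were seen, 76. The depth is unknown, and the precision is that of 2 or 3 libraries a group.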
